A study of Drosophila melanogaster with 4 samples.

Results

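Small clusters of called regions are places where the CG8478 antibody enriched 2, 3 or 4 separate stretches of fly chromatin close to one another. A called region is a stretch that the authors' peak caller marked as enriched. The members were chosen by their positions: on chromosome X, on chromosome 4 and on the arms of chromosomes 2 and 3, regions were joined into a chain when the gap to the next one was under 5 kb, and chains of exactly 2, 3 or 4 regions were kept. They held 1528 of the 4067 regions in the list (37.6%), or 1528 of the 3757 on these arms (40.7%, Wilson 95% interval 39.1 to 42.3%). The 1528 regions stood in 622 chains, of which 413 had 2 regions, 134 had 3 and 75 had 4. In each chain the region with the highest score is called the main region here, which leaves 906 satellites.

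The libraries came from white prepupae of Drosophila melanogaster, the stage at which the larva stops moving and its cuticle becomes the puparium. Every library came from the same strain, Y cn bw sp, whose alleles are listed as y[1] and oc[R3.2]; cn[1], bw[1], sp[1], CG33964[R4.2], Gr22b[1] and Gr22d[1]; and Rh6[1], GstD5[1], MstProx[1], lab[R4.2] and LysC[1]. Chromatin immunoprecipitation with sequencing (ChIP-seq) gave 2 ChIP libraries, made with a rabbit polyclonal antibody to CG8478, and 2 input libraries of genomic DNA. The deposited values were 1 list of regions with no value per library, so the read depth is unknown, replicates could not be compared, and no ChIP level could be set beside its input.

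A protein that binds DNA through zinc fingers reads a short sequence, and its sites may lie alone or several to a regulatory element such as a promoter or enhancer. The stretch of CG8478 used to raise the antibody, 111 residues long per the labels, holds 1 match to the spacing of cysteines and histidines of a C2H2 zinc finger. In ChIP-seq the fragments from a bound site extend beyond the site itself, so nearby sites may be called as 1 region, and 1 broad stretch may be called as several. Whether the regions of a chain are separate bound sites cannot be read from their positions and was not tested.

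The score is the authors' own value from the peak caller, and its scale is not stated in the file. It is used only to rank and describe regions within this list. Joining used the positions and the choice of the main region used the score, and the widths come from the same calls. These values are therefore given as descriptions, with no test. Intervals on shares are Wilson 95% intervals, intervals on medians are exact binomial ones, and both cover counting error only, since regions of 1 chain are not independent. All coordinates are in FlyBase release 5.

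Satellites of small chains were mostly weak and narrow, and main regions ranged widely in score. The main regions had a median score of 40.1 (95% interval 36.1 to 45.6, n = 622) and the satellites 13.4 (12.7 to 14.1, n = 906). In the ranking of all arm regions, 73.1% scored below the median main region and 31.7% below the median satellite. Median widths were 558 bp for main regions and 240.5 bp for satellites. Setting the highest region of each chain apart leaves the lower ones, so low satellite scores are partly built in by the choice. Of all 1528 members together, 52.0% scored below the median of all arm regions, close to the 50.0% of the arm regions themselves. Of the 906 satellites, 658 (72.6%, 69.6 to 75.4%) scored below that median of 19.93, and 369 (40.7%) below the lower quartile of 11.96. Of the 622 main regions, 295 (47.4%) scored above the upper quartile of 43.74, 136 (21.9%) below the median and 36 (5.79%) below the lower quartile. With the lower 50% of scores left out before joining, the medians were 67.0 for main regions and 29.9 for satellites, and satellites had a median width of 525 bp.

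Regions with no other within 5 kb were set beside the small chains, and so were chains of 5 or more. These 1532 lone regions had a median score of 22.4 and a median width of 359 bp, between the satellites and the main regions. All 1528 members of small chains together had a median score of 19.1 (17.7 to 19.9) and a median width of 336 bp. In chains of 5 or more, the highest-scoring regions had medians of 76.9 and 831 bp (n = 98). Their other regions had medians of 14.4 and 289 bp (n = 599). Weaker and narrower satellites were therefore not particular to small chains. Taking the highest of several regions raises a main region's score by itself, so some of its distance from lone regions is built in. How much was not computed, and the difference is read no further. The choice by score acts among regions of like width too, so the same order of medians there is only a description. Among regions of 400 to 800 bp the median score was 46.7 in 236 main regions, 25.2 in 165 satellites and 38.8 in 445 lone regions.

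The highest scores were divided among all classes. The top 10% of scores on the arms took in 376 regions, of which 118 (31.4%) were main regions of small chains, 17 (4.52%) were satellites, 169 (44.9%) were lone and 72 (19.1%) stood in chains of 5 or more. Within the classes, 19.0% of main regions, 1.88% of satellites and 11.0% of lone regions were in this top group. The split into main regions and satellites was made by score, which parts their shares by itself. Of all members together 8.84% were in the top group, beside 10.3% of regions in chains of 5 or more. Small chains covered 713 kb, 39.8% of all bases called on the arms, with 421 kb in main regions and 292 kb in satellites.

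Scores fell in steps from the main region to the last satellite, and the main region was stronger in longer chains. In chains of 2 the median score was 34.9 for the main region and 12.7 for the satellite. In chains of 3 the medians by rank were 49.7, 19.4 and 11.3, and in chains of 4 they were 60.2, 26.2, 14.1 and 10.0. The order by rank is fixed by the ranking itself, and a longer chain has more regions from which to take its highest. The satellites as a whole moved little with chain size, with median scores of 12.7, 14.4 and 13.6 in chains of 2, 3 and 4. Widths followed the ranks. They were 483 and 224 bp in chains of 2, 686.5, 339 and 210 bp in chains of 3, and 746, 428, 253 and 173 bp in chains of 4.

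**Figure D1:**
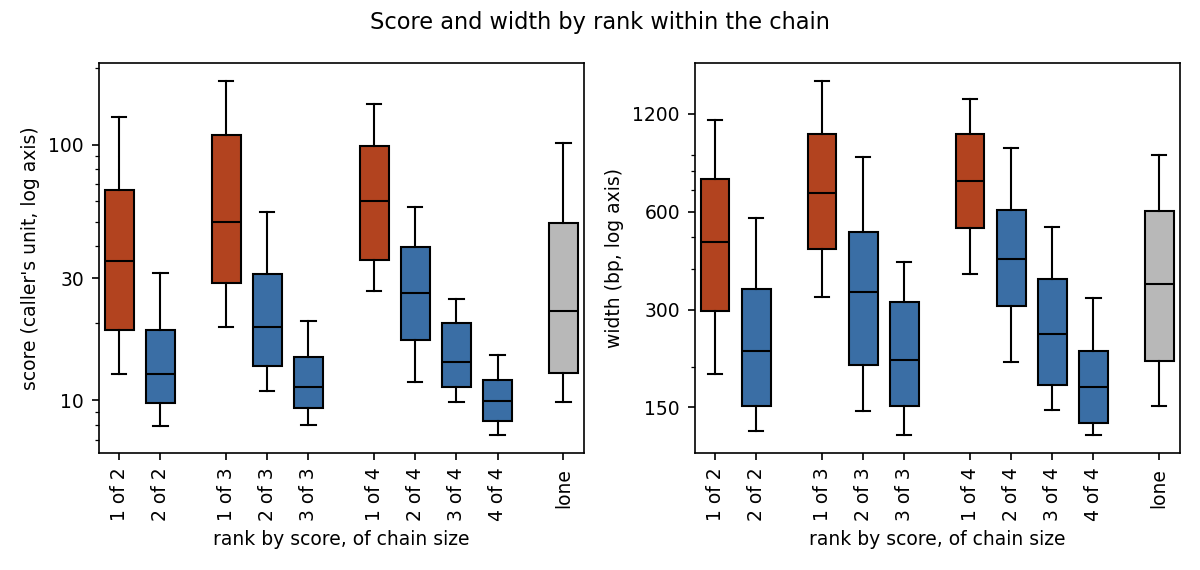
Score (left) and width in bp (right) of regions by their rank in score within chains of 2, 3 and 4, beside lone regions. Boxes give the median and quartiles, whiskers the 10th and 90th percentiles, main regions are red and satellites blue, and both axes are logarithmic. Main regions rise from a median score of 34.9 in chains of 2 to 60.2 in chains of 4, while the lowest-ranked satellites lie near 10 to 13.

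The highest score and the largest width usually fell on the same region. The main region was also the widest, or shared the largest width, in 507 of 622 chains (81.5%, 78.3 to 84.4%), and 126 of 906 satellites (13.9%) were wider than their main region. Across regions the score rose with the width, with Spearman's rho of 0.76 over main regions, 0.71 over satellites and 0.81 over lone regions. The widest member, named after its value was seen, was the main region at 2R 8474049 to 8477616 in a chain of 4, which measured 3568 bp and scored 84.52. The narrowest width on the arms, 119 bp, was found in 2 main regions and 38 satellites. Together these were 40 of 1528 members (2.62%), close to the 90 of all 3757 arm regions (2.40%).

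The score of the main region and that of the next-highest region in its chain rose together. Spearman's rho was 0.51 across 413 chains of 2, 0.52 across 134 chains of 3 and 0.42 across 75 chains of 4. These are descriptions over regions from the same libraries, and since a satellite cannot score above its main region some relation is built in. Chains whose regions were all strong or all weak were counted as well. In 22 of 622 chains (3.54%) all regions scored above the upper quartile of the arms, and in 136 (21.9%) all scored below the median. Of the 1528 members one by one, 354 (23.2%) scored above that quartile and 794 (52.0%) below the median. A low count of all-strong chains therefore follows in part from the cut-off. The counts that unrelated scores would give were not computed, so neither count is read as a trait of small chains. Of the 295 chains whose main region lay above the upper quartile, 141 (47.8%, 42.2 to 53.5%) had all their satellites below the median. Of all 906 satellites one by one, 72.6% scored below it. The same share over all chains was not computed, so the 47.8% is not read as a trait of strong main regions.

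The chains of 2 with the strongest main regions showed how far satellites can differ. The highest was at 2R 15993698 to 15994481, with a score of 430.24 and a width of 784 bp. Its satellite at 2R 15998308 to 15999093 was as wide, at 786 bp, scored 275.55 and began after a gap of 3826 bp. This satellite had the highest score of all 906. The next chain in order was on X, where the main region at 4305227 to 4306105 scored 316.2 and its satellite, 207 bp wide and 358 bp away, scored 14.14.

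The other chains of 2 named by this rule had their satellites close by. At 2R 7415196 to 7416476 the main region scored 315.77 and its satellite, 133 bp away, scored 147.04. At 3L 6735175 to 6736440 the main region scored 294.74 and the satellite, 294 bp away, scored 26.1. At 2L 11445416 to 11446733 the main region scored 290.42 and the satellite, 198 bp away, scored 78.06. The satellite on 2L was nearly as wide as its main region, 1099 bp beside 1318 bp, at a much lower score. In each of the 5 chains the satellite followed the main region along the arm.

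Among chains of 3 the strongest main regions had mostly weak satellites. At 3L 14124377 to 14125410 the main region scored 333.67 and its satellites scored 19.89 and 25.9, both on the same side, the farther one at a gap of 589 bp. At 2L 16485523 to 16487238 the main region scored 300.18, and satellites of 11.15 and 9.38 lay 4383 and 4624 bp away. At 3L 5763248 to 5764415 the main region scored 258.2 with satellites of 9.27 and 10.77 before it. In these 3 chains the satellites were all on one side, and none scored above 25.9.

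The remaining chains of 3 had the main region in the middle. On X the main region at 4579300 to 4580939 scored 241.66. It was preceded by a satellite of 183.18 at a gap of 114 bp and followed by one of 27.53 at 3944 bp. On 3R the main region at 26631057 to 26632275 scored 238.58, between satellites of 47.07 (859 bp before) and 12.09 (1890 bp after). The satellite of 47.07 was the wider one, at 1375 bp beside 1219 bp for its main region.

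The chains of 4 with the strongest main regions included long and short ones. At 3L 16045018 to 16046263 the main region scored 296.52, and satellites of 15.26, 13.23 and 14.77 lay before it, the farthest 10151 bp away. At 2R 3917985 to 3919060 the main region scored 221.01, and its farthest satellite, 11142 bp before it at 3906061 to 3906842, scored 202.96. The 2 between them scored 79.78 and 12.14. This chain therefore held 2 regions of nearly equal score at its ends and spanned 13000 bp, the longest of the 622. It was joined across gaps of 4938 and 4658 bp, not far under the limit. With a joining limit of 2500 bp the chain of this main region had 2 regions, without the one of 202.96.

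The other chains of 4 named were more compact. On X the main region at 19530937 to 19532429 scored 215.45, was followed at gaps of 46 and 226 bp by satellites of 8.48 and 11.3, and at 2333 bp by one of 113.38. On 3R the main region at 19120846 to 19121544 scored 191, with satellites of 132.59 and 6.87 before it and 12.21 after it. On 2R the main region at 18157858 to 18158614 scored 177.49, with satellites of 38.46 and 10.82 before it and 22.32 after it. In each of the 5 named chains of 4 the second-highest region was the satellite farthest from the main region. Over all 75 chains of 4 the median gap to the main region hardly differed by rank. It was 1916 bp for the second-highest region, 2012 bp for the next and 1873 bp for the lowest.

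**Figure D2:**
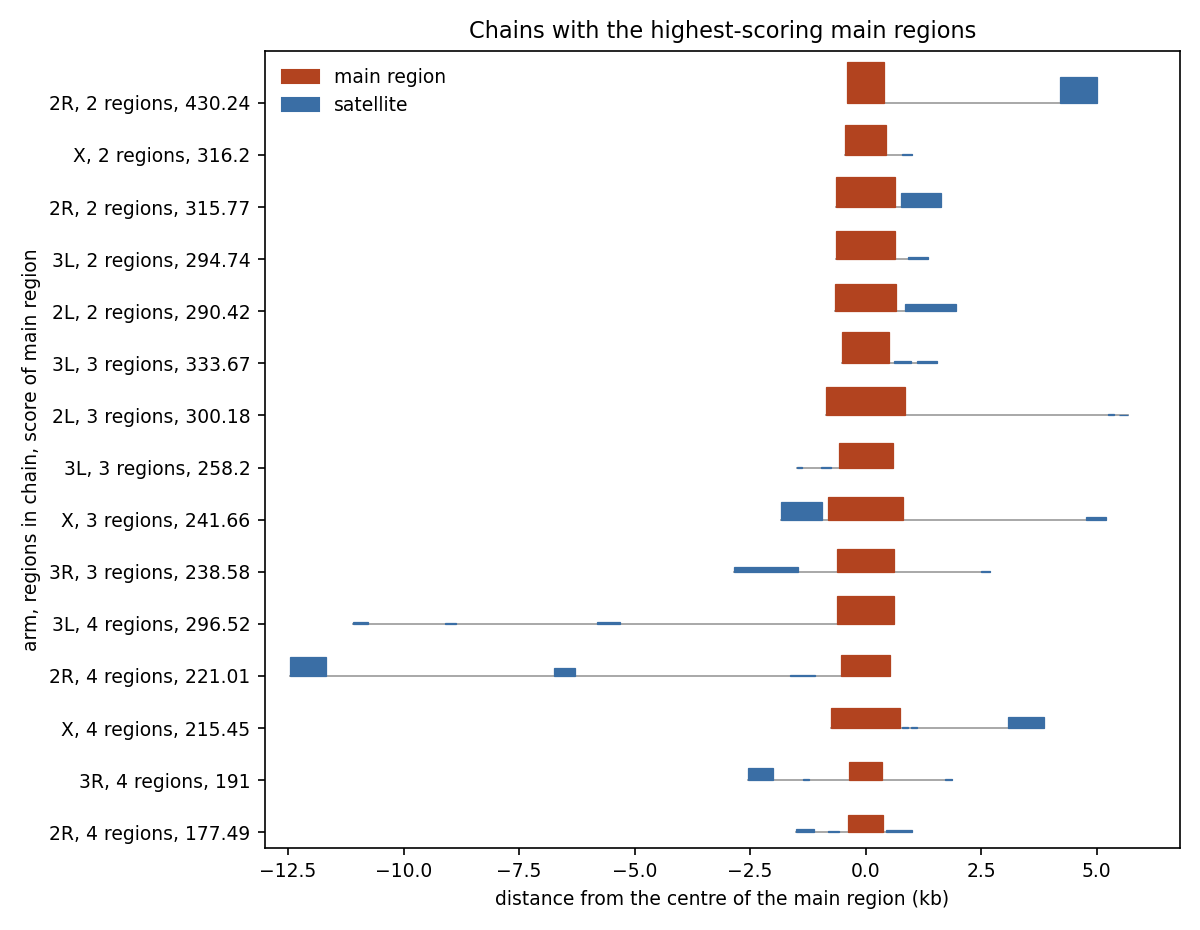
Regions of the 15 chains with the highest main scores, 5 for each chain size, drawn to scale by distance in kb from the centre of the main region. The height of each bar is proportional to its score, with main regions in red and satellites in blue. The 2R chain whose main region scored 430.24 and the 2R chain whose main region scored 221.01 each have a distant satellite above 200, while most satellites are too low to stand out from the line.

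Near-equal strong regions were also found among less extreme chains. Of the chains whose main region was in the top 10% of scores, the 3 with the smallest difference from the next region had 98.89 and 91.07 (2L, main region at 6723934 to 6724649), 173.48 and 165.53 (2L, 4809958 to 4810499) and 100.4 and 92.17 (X, 17208192 to 17208826). The members of each such couple were close in width as well. They measured 716 and 710 bp, 542 and 564 bp, and 635 and 581 bp. From edge to edge the couples lay 589, 973 and 359 bp apart. Between the regions of 173.48 and 165.53 stood a satellite of 14.57, at 2L 4811057 to 4811418.

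Gaps inside small chains were mostly far below the joining limit. The median gap between neighbours was 724.5 bp (580 to 903 bp, n = 906), with quartiles of 152.25 and 2354.5 bp. Gaps under 100 bp made up 17.0% of them, gaps under 250 bp 30.7%, gaps under 1 kb 55.7% and gaps of 2500 bp or more 22.4%. Short gaps were not particular to small chains. These chains held 278 of the 463 arm gaps under 250 bp and 505 of the 866 under 1 kb. The others lay in chains of 5 or more. The smallest gap in the list was 45 bp. Over all neighbouring regions of the arms the number of gaps per 1000 bp was 866 in the first, then 232, 173, 127 and 107 up to the limit, and 87, 67, 92, 66 and 70 beyond it up to 10 kb. The counts fell most within the first 1000 bp and showed no step at 5 kb.

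**Figure D3:**
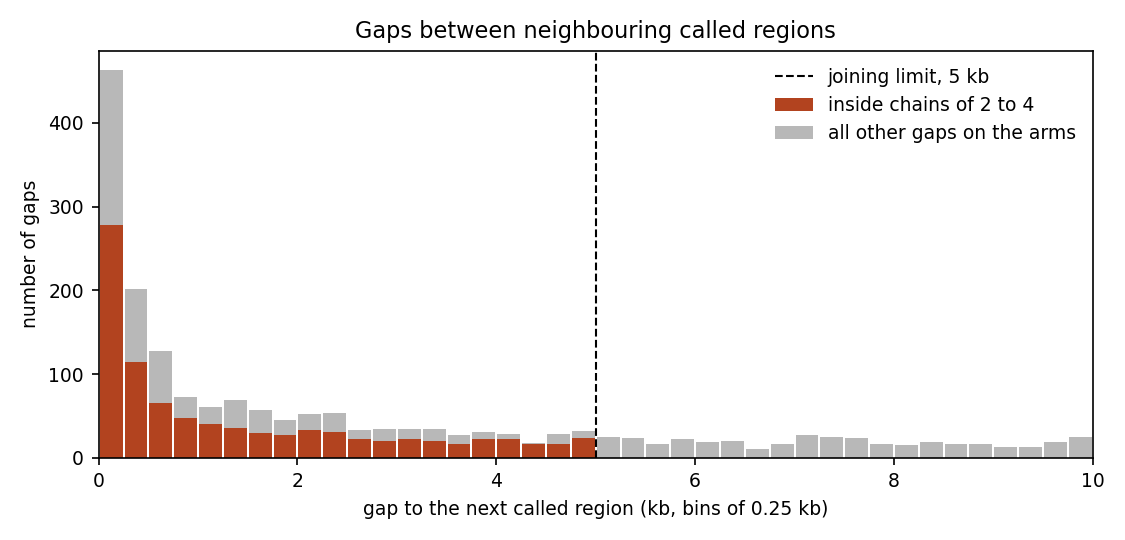
Number of gaps between neighbouring called regions on the 6 arms by gap in kb, in bins of 0.25 kb up to 10 kb. Red bars are gaps inside chains of 2 to 4, grey bars all other gaps, and the dashed line marks the limit of 5 kb. The first bin holds 463 gaps, 278 of them in small chains, and the bins on both sides of the limit are of like height.

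The joining limit itself therefore parts regions that hardly differ in spacing. The 3 widest gaps still joined measured 4984 bp on 3R, 4971 bp on X and 4967 bp on 2R, and the last of these lay in a chain of 5. The 3 narrowest gaps not joined measured 5004 bp on 2L, 5006 bp on 3R and 5019 bp on 2L. At 5006 bp the regions left apart scored 23.68 and 25.15, and the first of them belonged to a chain of 2. With a slightly wider limit that chain would have had 3 regions.

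Satellites beside the edge of the main region had the lowest median score. Measured from edge to edge, satellites under 250 bp from their main region had a median score of 11.7 (10.8 to 12.7, n = 207), and those at 1 to 2 kb had 15.0 (12.7 to 17.4, n = 152). The satellites under 250 bp away were also the narrowest. Their median width was 205 bp, beside 240 to 328 bp in the other classes of gap, and score rose with width. The share of satellites above the median score of the arms was 15.9% (11.6 to 21.5%) under 250 bp, 21.4% at 250 to 500 bp, 26.5% at 500 to 1000 bp and 37.5% (30.2 to 45.4%) at 1 to 2 kb. Beyond this it was 32.7% at 2 to 3 kb, 24.2% (18.3 to 31.4%) at 3 to 5 kb and 38.6% in the 57 satellites at 5 kb or more, all of which belong to chains of 3 or 4. The share was thus lowest at the shortest distance and did not rise steadily with it. The main regions of the nearest satellites were also the weaker ones, with a median score of 30.9 under 250 bp and 53.4 at 1 to 2 kb.

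**Figure D4:**
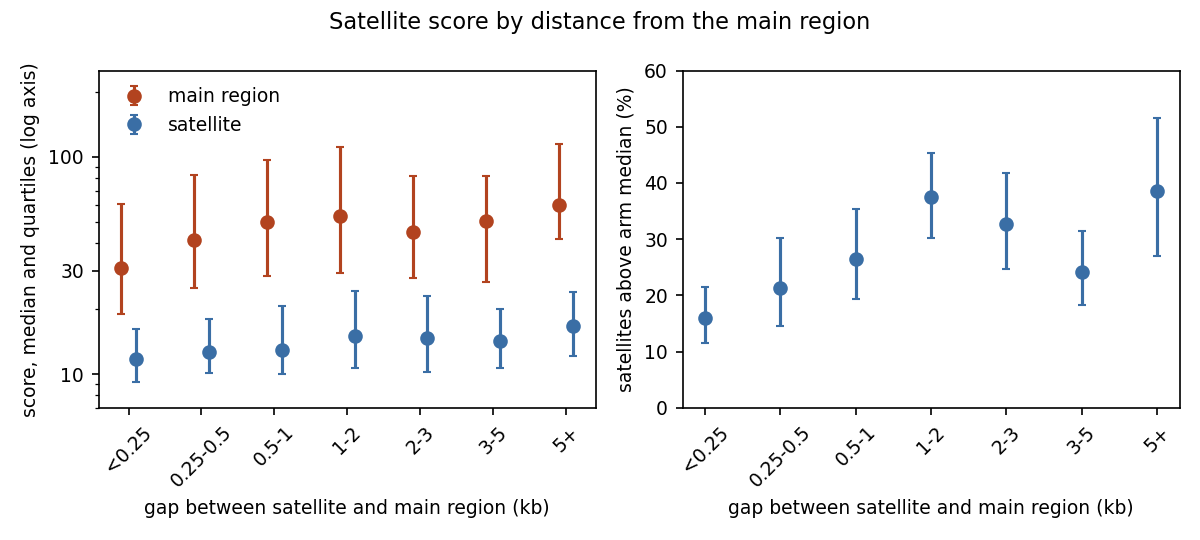
Left, scores of main regions (red) and their satellites (blue) by the gap between their edges in kb, as medians with quartiles on a logarithmic axis. Right, percentage of satellites scoring above the median of all arm regions, with Wilson 95% intervals. The percentage is 15.9 under 250 bp and 37.5 at 1 to 2 kb.

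Chains of 2 showed the same with chain size held fixed. The 176 pairs under 500 bp apart had median scores of 29.3 in main regions and 11.8 in satellites. The 237 pairs at 500 bp or more had 39.9 and 14.1. Over all 413, Spearman's rho with the gap was 0.19 for the satellite score and 0.15 for the main score, which are weak relations.

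The nearest satellite was often not the strongest one. In chains of 3 the satellite nearest to the main region was the second-highest region in 64 of 134 (47.8%, 39.5 to 56.2%) and the lowest in 70. In chains of 4 it was the second-highest in 17 of 75 (22.7%, 14.7 to 33.3%), the next in 21 and the lowest in 37 (49.3%, 38.3 to 60.4%). With no relation between rank and nearness, each satellite would be the nearest equally often, so chains of 3 lay close to an even division and chains of 4 leaned to the lowest. When the main region stood at an end of a chain of 3, the nearest satellite was the second-highest in 39 of 93 (41.9%), and when it stood in the middle in 25 of 41 (61.0%, 45.7 to 74.3%). In chains of 4 the order was the other way, with 11 of 39 (28.2%, 16.5 to 43.8%) for a main region at an end and 6 of 36 (16.7%, 7.87 to 31.9%) for one inside.

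Satellites lay on both sides of the main region in near-equal numbers. Of 906, 480 (53.0%, 49.7 to 56.2%) followed it in the direction of rising coordinates. The median distance between midpoints was 1.79 kb (1.63 to 1.93 kb), with quartiles of 0.798 and 3.41 kb. Chains of 2 had the main region first in 222 of 413 (53.8%, 48.9 to 58.5%). In chains of 3 it was first in 46, in the middle in 41 and last in 47. In chains of 4 the main region was at the first to the last place in 24, 17, 19 and 15, so that 36 of 75 (48.0%) were inside. In each chain size the interval of every place included an equal share of places.

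The arms differed in this order by more than the pooled value shows. The main region came first in 62 of 99 pairs on X (62.6%, 52.8 to 71.5%), 52 of 87 on 3R (59.8%, 49.3 to 69.4%), 35 of 64 on 2R (54.7%), 34 of 69 on 2L (49.3%) and 39 of 92 on 3L (42.4%, 32.8 to 52.6%). On X alone the interval did not include 50%, and 5 large arms were looked at. The share on X was 48.6% (37.6 to 59.8%) with the lowest 25% of scores left out before joining, and 53.1% (42.3 to 63.6%) with a joining limit of 10 kb. The difference between arms was not tested.

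**Figure D5:**
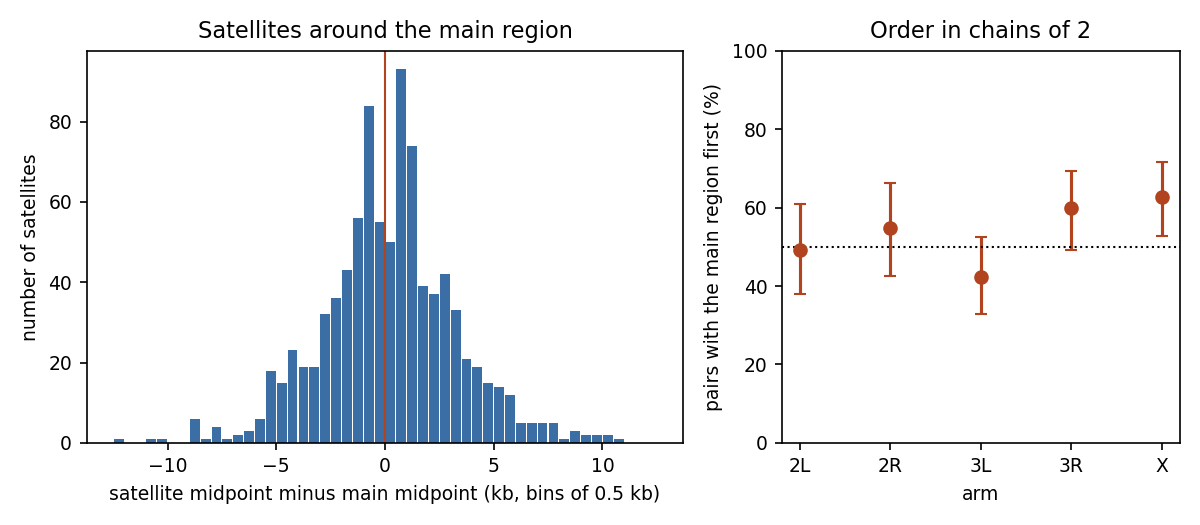
Left, number of satellites by signed distance in kb from the midpoint of their main region, in bins of 0.5 kb, with the main region at 0. Right, percentage of chains of 2 with the main region first on each large arm, with Wilson 95% intervals and a dotted line at 50%. The satellites spread to both sides alike, with the tallest bins at 0.5 to 1 kb, and X has the highest percentage at 62.6.

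Small chains occurred on every arm in about the same share of its regions. The share ran from 37.8% of 637 regions on 2L (34.2 to 41.7%) over 39.0% on 2R, 41.6% on 3L and 41.8% on 3R to 42.0% of 879 on X (38.8 to 45.3%), with overlapping intervals. Chromosome 4 had 11 of 24 regions in small chains (45.8%, 27.9 to 64.9%). What differed more was the rest of each arm, since chains of 5 or more took 25.3% of regions on 2L and 14.7% on 3L.

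By length the X carried most small chains. It had 150 and the autosomal arms had 472, which over the stretch from the first to the last region is 6.70 per Mb on X and 4.95 per Mb on the autosomes. The ratio was 1.35 (exact conditional 95% interval 1.12 to 1.63, counting error only). All called regions of the arms gave a like ratio, 1.30 (1.20 to 1.40), so the higher density on X was shared by the list as a whole. For lone regions it was 1.17 (1.03 to 1.32). These intervals overlap, and whether the ratios differ was not tested. Among the autosomal arms 3L had 5.35 chains per Mb, 2R 5.22, 3R 4.98, 2L 4.37 and chromosome 4 3.15.

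Along an arm the number of chains varied, and whether by more than counting error was not tested. Counted per bin of 1 Mb, there were 6.81 ± 3.04 chains on X (mean ± SD, n = 21 bins), with a range of 3 to 13. The bins averaged 5.57 ± 2.27 on 3L (n = 23), 5.32 ± 1.97 on 2R (n = 19), 5.19 ± 2.48 on 3R (n = 26) and 4.50 ± 2.92 on 2L (n = 22). Bins without a chain were found on 2L and 3R, and none on X, 2R and 3L. The gap from a chain to the next called region outside it had a median of 25.5 kb in the 1244 cases and was under 10 kb in 19.4%.

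The arms were closer in the widths of their chains than in the gaps. Median scores ran from 36.7 on X to 46.02 on 2L for main regions, and from 11.8 on chromosome 4 to 14.2 on 3R for satellites. Median widths ran from 539 bp on chromosome 4 to 620 bp on 3R for main regions, and from 227.5 bp on 3L to 252 bp on X for satellites. The median gap between neighbours ran from 577 bp on 3R to 942 bp on X among the large arms and was 150 bp on chromosome 4. The median distance between midpoints was 0.729 kb on chromosome 4, from 7 satellites, and 1.65 to 1.95 kb on the large arms.

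Chromosome 4, the small autosome that is largely heterochromatic, had 4 small chains. The strongest held 4 regions, with the main region at 528259 to 529409 scoring 60.23 and satellites of 40.57, 11.83 and 18.57 before it. A chain of 2 had its main region at 818071 to 818633 with a score of 50.49 and a satellite of 6.04. A chain of 3 had its main region at 724873 to 725266 scoring 33.71, with satellites of 10.47 and 11.73, and the last chain of 2 scored 16.32 in its main region at 578323 to 578837 and 13.4 in its satellite. In all 4 chains the main region came last, and with so few chains nothing further is read from this.

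Small chains were followed by units of all kinds in about the proportions in which these occurred. Counting each chain and each lone region as 1 unit, the unit that followed a small chain was another small chain in 166 of 622 cases (26.7%, 23.4 to 30.3%), where 27.6% of all units were small chains. It was a lone region in 427 (68.6%, with 68.0% of all units) and a chain of 5 or more in 29 (4.66%, with 4.35% of all units). The longest run had 6 small chains in a row and occurred 1 time.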

How the data were processed

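The labels describe 2 ChIP and 2 input libraries of white prepupae, grouped by their titles. Nothing says that the replicates are separate collections. The deposited list gives each region a position and a score by MACS on FlyBase release 5, per the file headers. BWA, MACS2, CASAVA (1.7.0.2, 1.7.0.3) and the build BDGP5 are named per the submitters' processing notes. What the deposited score means, and the threshold, use of input and pooling behind the list, are not stated in these sources. A caller that divides or fills enriched stretches changes how many regions a chain has, and so the counts.

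Starts were taken to count from 0, since a start of 0 occurred 2 times, and 1 was added. Gaps between neighbours ran from an end to the next start, and gaps to a main region from edge to edge, across any region between. Ties for the highest score (3 chains) went to the wider region. Python 3.11.15, pandas 2.3.3 and scipy 1.17.1 were used, and the joining was checked on simulated lists. The members and rules were chosen with earlier results of these data known. Named chains were the 5 with the highest main scores for each size, the 3 closest in score and those of chromosome 4. Genes and sequences at the regions were not analysed here, and 8 alternatives were run.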

Additional observations from a re-analysis of the deposited data

Results flagged for a closer look

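Regions off the 6 arms lay outside the comparisons above, and some of them formed chains by the same joining limit. There were 108 of 310 such regions (34.8%, Wilson 95% interval 29.7 to 40.3%, counting error only) in 49 chains of 2, 3 or 4, and 106 of the 108 lay on Uextra, the unplaced scaffolds of release 5. Their median score was 22.2 in main regions and 12.8 in satellites. The list has no control value beside which to set them, and repeated copies of sequence were not analysed here.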

How the results depend on the processing

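The rule fixes distances, and these moved with it: the median distance between midpoints of main region and satellite, 1.79 kb, was 1.18 kb with a gap under 2500 bp, 2.94 kb with a gap under 10000 bp, 2.25 kb with the lowest 25% of scores left out, 2.45 kb with the lower 50% left out and 3.03 kb with regions under 500 bp apart joined. With the lower 50% left out, 583 regions remained in small chains, or 2.21 chains per Mb, in chains of 3 and 4 the nearest satellite was the second-highest in 50% (38.8% in the full list), and 0% of satellites scored below the arm median by construction. That share was 53.4% with the lowest 25% left out and 63.0% with near regions joined, against 72.6%. Main regions came first in 48.8% of pairs with the lowest 25% left out, against 53.8%. On X it was 48.6 to 63.6% over 7 alternatives. Leaving out the narrowest regions or X moved none of the 6 main values beyond its interval or, for counts, by over 1.5 times, and neither did taking the widest region as the main one for the 4 values it can change. Of the 15 named chains, 5 kept their size when near regions were joined, and 8 still had 2, 3 or 4 regions. With the lower 50% left out, 5 kept their size and 10 still had 2, 3 or 4 regions. The share of arm regions in small chains, 40.7%, was 31.3 to 41.5% over 7 alternatives, lowest with the lower 50% left out. It was 35.2% with near regions joined. No paired analysis was possible because no region has a value per library, and leaving out each library was not run for the same reason. The unknown depth limits what weak regions can show.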
